A study of Mus musculus with 6 samples.

Results

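Cadherins and non-clustered protocadherins are single-pass or membrane-anchored adhesion proteins of the cell surface. They were taken here as every listed gene whose symbol is Cdh or Pcdh followed by a number, with or without a final x, which leaves out the clustered protocadherins. The rule found 35 of the 54658 listed genes, 23 Cdh and 12 Pcdh genes, and all 35 are annotated as protein coding. Of these, 30 reached 10 counts in at least 3 libraries and entered the test. The tissue was nucleus accumbens, the ventral part of the striatum, of C57BL6 male mice aged 8 weeks. The Gas5 group (3 libraries, A to C) had received Gas5, a long noncoding RNA, and EGFP in a herpes simplex virus p1005+ vector, and the GFP group (3 libraries, A to C) the same vector with EGFP alone, so both groups carry the injection, the virus and EGFP. The series is titled for the role of Gas5 in the action of cocaine, and neither group is labelled as having been given cocaine. The labels do not name the promoter that drove Gas5, nor whether a library is 1 mouse or a pool, and the p-values therefore measure the spread between these libraries.

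Classical cadherins bind the same or a similar cadherin on a neighbouring cell through calcium-dependent extracellular repeats, and their cytoplasmic tails hold catenins, which link them to actin. Type I and type II cadherins differ in the adhesive interface, and neurons combine several type II cadherins, each expressed in particular nuclei and pathways. Non-clustered protocadherins lack the catenin-binding tail and are divided into the delta-1 and delta-2 subfamilies, which differ in the number of extracellular repeats and in their cytoplasmic motifs. In the developing brain both classes are known for axon sorting and for the adhesion of pre- and postsynaptic membranes.

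Gas5, the delivered gene, averaged 23.2 ± 0.547 CPM in Gas5 and 17.8 ± 1.16 CPM in GFP (SD, n = 3 each), in CPM, counts scaled to library size with TMM factors, the unit of all levels below. Its log2 fold change was 0.38 ± 0.0634 (SE; edgeR, adjusted p = 0.0164), past the threshold of 0.05 at which a gene is here said to be called, and the groups did not overlap. By an exact permutation test of the same values (2-sided) p was 0.1, which is the lower limit for groups of 3 and 3. Of the span of Gas5 26.6% is shared with other listed genes and left uncounted. Leaving out GFP B ended the call (adjusted p = 0.0733 by edgeR, log2 fold change 0.33), as did leaving out GFP C (adjusted p = 0.0689, log2 fold change 0.40). Library totals lay between 32359052 and 56081575 counts. The 12 markers of medium spiny neurons, the main cell type of the striatum, summed to between 3006 and 3608 CPM in Gas5 and between 3204 and 3570 CPM in GFP, and 0 of them were called by edgeR, with 2 at an unadjusted p under 0.05.

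Markers of excitatory neurons of the cortex, which lies outside the labelled tissue, were on average lower in the Gas5 libraries. The 10 called members are also given below with this average, the cortical score, as a covariate. Averaged over the list, log2 CPM reached 2.76, 3.37 and 3.54 in the Gas5 libraries, against 4.37, 4.82 and 4.83 in the GFP libraries. Of 11 tested markers 7 were called lower by edgeR and 0 higher. Among the 7 was Slc17a7, which loads glutamate into synaptic vesicles. Its levels were 5.75, 25.2 and 42.5 CPM in the Gas5 libraries, against 153, 217 and 247 CPM in the GFP libraries. Of the uncalled markers, Fezf2 (log2 fold change -1.33) had Gas5 below GFP and Tle4 (0.12) had every Gas5 library above GFP. Lamp5 (0.10) and Cux2 (-0.01) overlapped. Tle4 had the highest level of the list, on average 348 CPM in Gas5 and 321 CPM in GFP. Summed over the list, the markers held between 533 and 612 CPM in Gas5 and between 737 and 851 CPM in GFP, and Neurod1, which lies wholly within other listed genes, was at 0. In bulk tissue, fewer cells of a type and less RNA per cell cannot be told apart.

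Of the 30 tested cadherins and protocadherins, 9 were lower and 1 was higher in the Gas5 libraries at an edgeR adjusted p under 0.05. Over all 17693 tested genes the share called lower was 3.94%, the share called higher 1.46% and the share called in either direction 5.40%. The lower genes were Cdh24, Cdh12, Cdh13, Pcdh20, Cdh9, Cdh18, Cdh10, Cdh20 and Pcdh7, in order of log2 fold change, and the higher gene was Cdh7. The log2 fold change was negative for 20 members and positive for 10, with a median of -0.14 over the members and 0.02 over all tested genes. The groups did not overlap for 15 of the 30 members, 12 with Gas5 below GFP and 3 with Gas5 above, where 27.7% of all tested genes had no overlap. The number called lower ranged from 0 to 11 when 1 library at a time was left out, with 1 call if GFP B was omitted and 0 if GFP C was. Over all genes those fits called 105 and 88 genes lower, against 697 with every library. The number of members called was 0 once the cortical score was a covariate. At an unadjusted p under 0.05 there were 16 members with all libraries, 14 without GFP B, 13 without GFP C and 0 in the fit with that score. Over all tested genes the same 4 fits gave 3783, 2642, 2721 and 401.

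**Figure D1:**
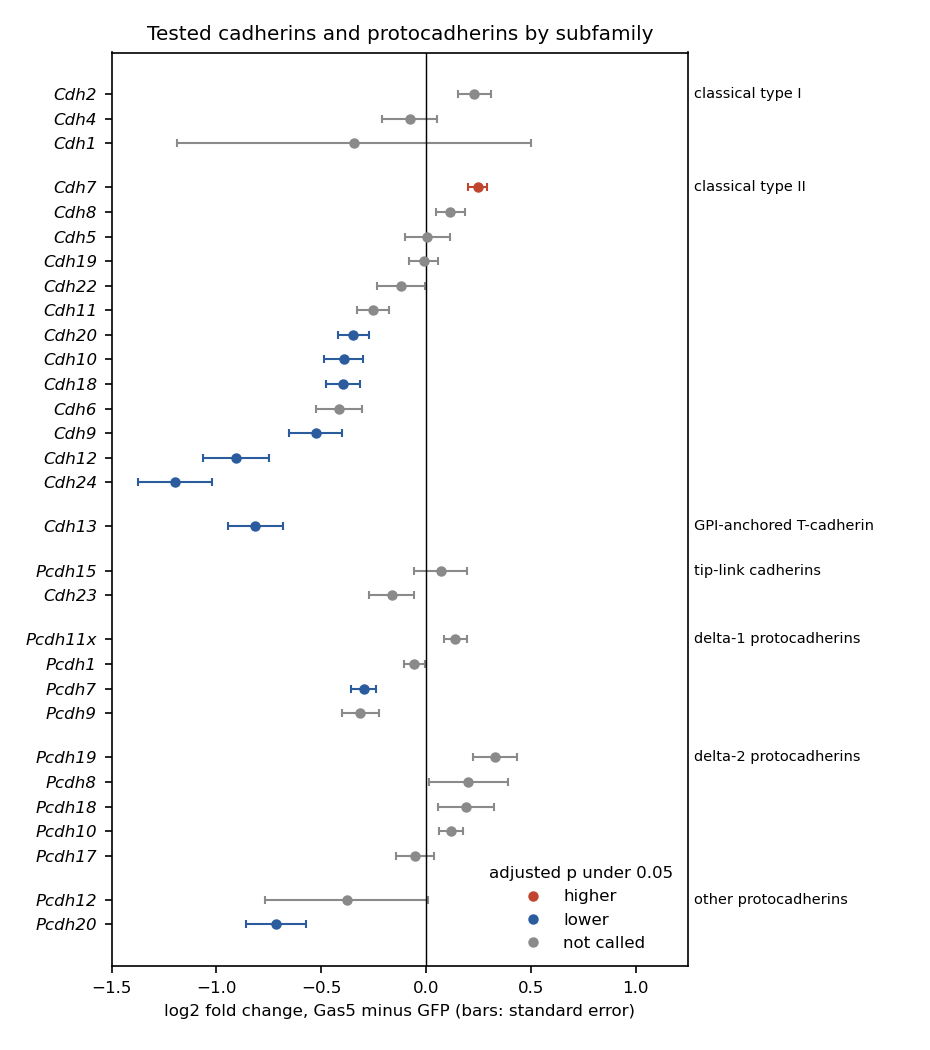
Log2 fold change (Gas5 minus GFP, horizontal axis) of each of the 30 tested genes, grouped by subfamily, with standard errors as bars. Blue points (lower) and the red point (higher, Cdh7) have an edgeR adjusted p under 0.05. Most of the type II cadherins lie left of 0, down to -1.20 for Cdh24, while 4 of the 5 delta-2 protocadherins lie right of it.

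By count, 7 of the 10 calls fell on type II cadherins. Of 13 tested type II genes 6 were lower and 1 higher, and their median log2 fold change was -0.35. Together they summed to 1359, 1337.5 and 1573 CPM in Gas5 A, B and C, against 1665, 1736 and 1742 CPM in GFP A, B and C, not corrected for length. The 3 type I genes, the 2 tip-link genes and the 5 delta-2 protocadherins had 0 calls, while T-cadherin and 1 gene each of the 4 delta-1 and the 2 remaining protocadherins were lower. Of all tested genes 5.40% were called in either direction, so 0 calls among so few genes do not set the uncalled subfamilies apart from all genes. All 35 genes summed to 5648, 5833 and 6282 CPM in Gas5 A, B and C, against 6694, 7115 and 6969 CPM in GFP A, B and C, between 0.587% and 0.631% of the counts of a Gas5 library and between 0.663% and 0.690% of those of a GFP library. These shares differed between the groups without overlap.

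Start regions of type II genes are shown because 4 of the lower ones (Cdh9, Cdh10, Cdh12 and Cdh18) stand in a row on chromosome 15, Cdh24 had the largest fold change and Cdh7 was the only one called higher. Each is the RefSeq window of GRCm38.p6 from 250 bases before to 50 bases after an annotated start, 5′ to 3′ on the gene's strand, and the capitals mark the words CAGATG and CAGCTG (E-boxes), TGACGTCA (a cyclic AMP response element), GGGCGG (a GC box) and TATAAA, searched on both strands, none of which contains another.
Cdh9, chr15:16728665-16728964 (+): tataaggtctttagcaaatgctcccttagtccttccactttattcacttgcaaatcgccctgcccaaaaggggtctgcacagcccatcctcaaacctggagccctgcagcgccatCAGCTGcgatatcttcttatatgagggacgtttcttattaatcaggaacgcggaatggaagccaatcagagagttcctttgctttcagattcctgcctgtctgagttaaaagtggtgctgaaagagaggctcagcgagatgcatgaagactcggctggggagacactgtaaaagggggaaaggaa
Cdh10, chr15:18820079-18820378 (+): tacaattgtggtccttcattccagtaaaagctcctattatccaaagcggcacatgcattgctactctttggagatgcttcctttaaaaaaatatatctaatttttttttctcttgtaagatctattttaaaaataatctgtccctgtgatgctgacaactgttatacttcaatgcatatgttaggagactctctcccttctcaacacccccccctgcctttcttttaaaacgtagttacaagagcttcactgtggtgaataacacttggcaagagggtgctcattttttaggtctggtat
Cdh12, chr15:21111202-21111501 (+): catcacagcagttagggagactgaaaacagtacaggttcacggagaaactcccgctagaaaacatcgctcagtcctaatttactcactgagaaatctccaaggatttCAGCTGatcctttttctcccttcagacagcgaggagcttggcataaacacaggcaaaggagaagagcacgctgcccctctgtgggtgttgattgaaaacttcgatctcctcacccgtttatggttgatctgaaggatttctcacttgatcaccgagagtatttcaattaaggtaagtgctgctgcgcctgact
Cdh18, chr15:23036213-23036512 (+): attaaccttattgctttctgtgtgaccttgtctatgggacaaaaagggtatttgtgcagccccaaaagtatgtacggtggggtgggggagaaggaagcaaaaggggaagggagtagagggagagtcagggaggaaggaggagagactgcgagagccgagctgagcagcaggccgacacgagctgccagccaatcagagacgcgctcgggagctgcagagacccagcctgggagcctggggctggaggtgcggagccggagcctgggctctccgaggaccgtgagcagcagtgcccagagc
Cdh24, chr14:54641315-54641614 (-): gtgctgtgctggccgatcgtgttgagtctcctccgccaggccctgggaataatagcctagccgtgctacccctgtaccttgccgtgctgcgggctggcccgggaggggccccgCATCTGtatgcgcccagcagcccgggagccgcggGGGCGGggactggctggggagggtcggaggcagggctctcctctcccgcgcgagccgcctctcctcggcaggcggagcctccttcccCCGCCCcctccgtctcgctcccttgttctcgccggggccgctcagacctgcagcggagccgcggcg
Cdh7, first of 3 windows, chr1:109982650-109982949 (+): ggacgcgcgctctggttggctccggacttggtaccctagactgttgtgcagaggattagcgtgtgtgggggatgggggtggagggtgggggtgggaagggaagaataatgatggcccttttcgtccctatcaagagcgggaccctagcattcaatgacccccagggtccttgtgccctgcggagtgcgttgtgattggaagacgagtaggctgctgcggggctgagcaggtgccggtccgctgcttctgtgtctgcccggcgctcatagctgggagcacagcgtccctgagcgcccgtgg
The windows of Cdh9 and Cdh12 held 1 CAGCTG each, and that of Cdh24 held 1 CAGATG, read on the opposite strand, and 2 GC boxes. None of these words stood in the windows printed for Cdh10, Cdh18 and Cdh7, which says only that these letters are not in these 300 bases. Another Cdh7 window, chr1:109983473-109983772, which is not printed, held 1 CAGATG, read on the opposite strand. GC content ran from 37.7% in the Cdh10 window and 46.7% in that of Cdh12 to 73.3% in that of Cdh24. RefSeq windows were found for 22 of the 35 genes, 25 windows in all, with a median GC content of 60.3%, against 52.7% over all 32851 windows. CAGATG stood in 2 of the 25 and in 17.2% of all windows, CAGCTG in 3 and 16.3%, the GC box in 9 and 35.7%, TATAAA in 2 and 13.6%, and TGACGTCA in 0 and 1.79%. In the printed windows the RefSeq start lies inside the span over which reads were counted for Cdh7, Cdh9, Cdh10, Cdh12 and Cdh18, and at the edge of that span for Cdh24. For Cdh12 the counted span begins at 20449265 and the window at 21111202, and for Cdh18 at 22549022 and 23036213. The windows of Cdh12 and Cdh18 therefore lie deep inside the counted gene and not at its listed start.

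Cdh24, whose human counterpart binds beta- and p120-catenin, had the largest fold change of all tested members. It stood at 3.78, 5.24 and 6.48 CPM in Gas5 A, B and C, against 11.9, 10.5 and 13.1 CPM in GFP A, B and C. Every Gas5 library was below every GFP library. The decrease was 2.29-fold, with a log2 fold change of -1.20 ± 0.175 (SE; edgeR, adjusted p = 0.0111). Raw counts behind these values were 163, 224 and 251 in Gas5 A, B and C, against 659, 405 and 417 in GFP A, B and C. The gene is short for the family (GRCm38 chromosome 14, 54631231 to 54641364, minus strand), and 34.4% of its span is exon. Its adjusted p was 0.0626 without GFP C and at most 0.0466 when any other single library was left out.

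Cdh12, known as brain cadherin or N-cadherin 2, was next, at 63.6, 55.4 and 91.5 CPM in Gas5 A, B and C, against 129.7, 124 and 141 CPM in GFP A, B and C. Within the Gas5 group library C was the highest, and it too lay below the lowest GFP library. The gene fell 1.88-fold, with a log2 fold change of -0.91 ± 0.159 (SE; edgeR, adjusted p = 0.0187). The call was lost when the fit omitted GFP B or C (adjusted p = 0.0758, 0.0992). Cdh12 spans over a megabase (chromosome 15, 20449265 to 21589533, plus strand), of which 0.553% is exon, and 46.6% of the span is shared with other listed genes and left uncounted. Introns thus make up nearly all of the length over which its reads were counted, and exonic and intronic reads cannot be told apart.

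Cdh9 and Cdh10, neighbours of Cdh12 on the plus strand of chromosome 15, moved less far. Cdh9, a cadherin of hippocampal mossy fibre synapses, had 46.7, 60.2 and 70.7 CPM in the Gas5 libraries, against 81.4, 86.1 and 88.2 CPM in the GFP libraries. Its Gas5 libraries were spread more widely than its GFP libraries and lay wholly below them. For Cdh9 the log2 fold change was -0.53 ± 0.126 (SE), and its adjusted p by edgeR, 0.0496, stood at the edge of the threshold. The call of Cdh9 was lost when the fit omitted Gas5 B (adjusted p = 0.0773) or GFP A, B or C (adjusted p = 0.0835, 0.171, 0.179), and under upper quartile scaling (0.0562) or a filter of 1 CPM (0.0528). Cdh10, also expressed in endothelium of the blood-brain barrier, had 161, 169 and 209 CPM in the Gas5 libraries, against 232, 230.3 and 245 CPM in the GFP libraries. Here again Gas5 C was the closest to the GFP libraries and still below them. The log2 fold change of Cdh10 was -0.39 ± 0.0923 (SE; edgeR, adjusted p = 0.0471). That call was lost when the fit omitted Gas5 A or B (adjusted p = 0.0912, 0.0873) or GFP A, B or C (adjusted p = 0.0897, 0.151, 0.179), and under upper quartile scaling (0.0553). In the fit that takes the cortical score as covariate both values changed sign, to 0.28 for Cdh9 (standard error 0.181) and 0.04 for Cdh10 (standard error 0.198), and edgeR called neither, with an adjusted p of 0.999 for each.

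Cdh18, also called cadherin-14, lies at the far end of the chromosome 15 row, and stood at 301, 298 and 349 CPM in the Gas5 libraries, against 377, 435 and 433 CPM in the GFP libraries. The highest Gas5 library lay below the lowest GFP library. Its log2 fold change was -0.40 ± 0.0816 (SE; edgeR, adjusted p = 0.0314). The call was lost when the fit omitted Gas5 A or B (adjusted p = 0.0663, 0.0600) or GFP B or C (adjusted p = 0.144, 0.143). Exons make up 0.492% of its span, the lowest share among the tested genes.

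Cdh20 and Cdh7 lie on chromosome 1 with Cdh19 beyond them, and they were called in opposite directions. Cdh20 stood at 74.8, 66.98 and 82.1 CPM in Gas5 A, B and C, against 97.5, 89.5 and 97.6 CPM in GFP A, B and C. The log2 fold change of Cdh20 was -0.35 ± 0.0750 (SE; edgeR, adjusted p = 0.0370). This decrease lost its call when the fit omitted Gas5 A or B (adjusted p = 0.0728, 0.0502) or GFP A, B or C (adjusted p = 0.0887, 0.0942, 0.150). Cdh7, known from migrating neural crest cells of the chick, stood at 104, 103 and 106 CPM in Gas5 A, B and C, against 92.6, 86.7 and 84.96 CPM in GFP A, B and C. The Gas5 libraries of Cdh7 were nearly level with each other and all above the GFP libraries. It rose 1.19-fold, with a log2 fold change of 0.25 ± 0.0469 (SE; edgeR, adjusted p = 0.0246), and lost the call when the fit omitted Gas5 C (adjusted p = 0.0662) or GFP B or C (adjusted p = 0.128, 0.129). For Cdh19, a cadherin of the Schwann cell lineage, the mean was 17.2 ± 1.40 CPM in Gas5 and 17.3 ± 0.271 CPM in GFP (SD, n = 3 each), with overlapping groups (edgeR, adjusted p = 0.946).

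**Figure D2:**
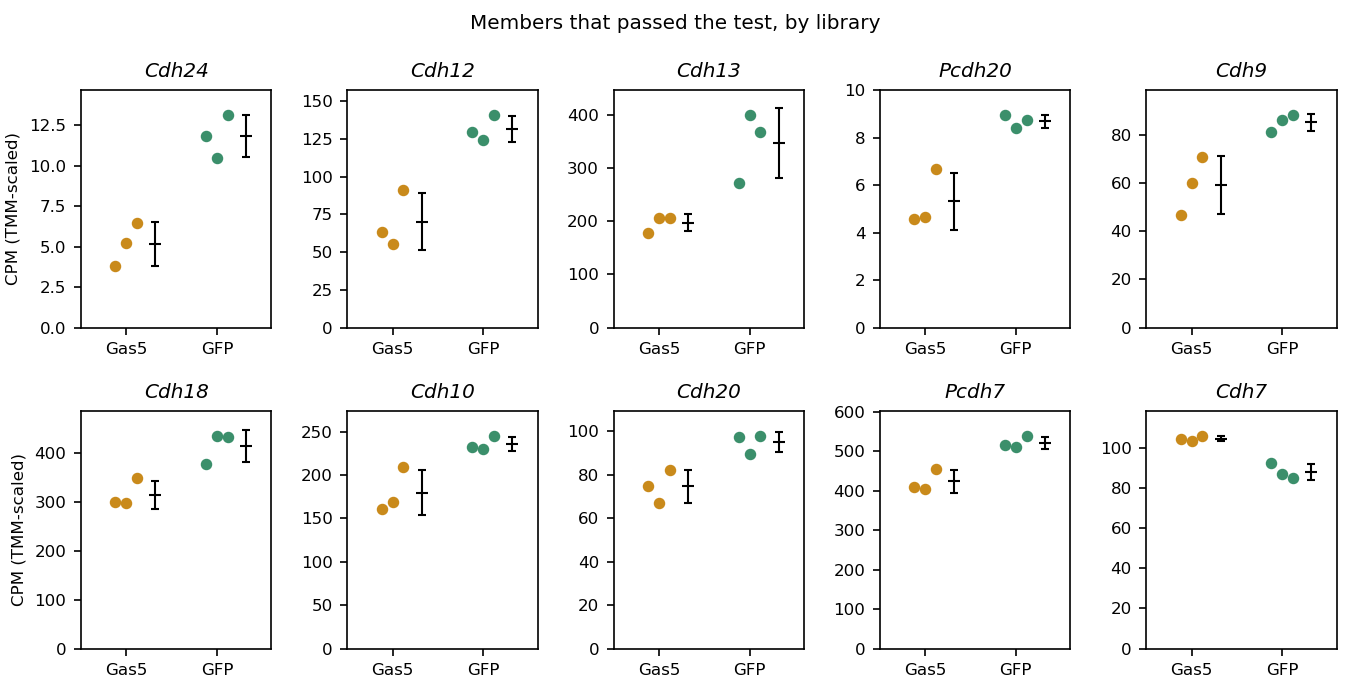
TMM-scaled CPM (vertical axis, from 0 in each panel) of the 10 genes called by edgeR, in the 3 Gas5 libraries (orange, left) and the 3 GFP libraries (green, right), with group mean and SD beside the points. In 9 panels all Gas5 points lie below all GFP points, with the largest ratio for Cdh24. In the Cdh7 panel all Gas5 points lie above.

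Of the 6 type II cadherins that were not called, Cdh6 and Cdh11 came nearest to the threshold. Cdh6, known as K-cadherin, had 26.6, 22.6 and 32.1 CPM in the Gas5 libraries, against 35.5, 35.4 and 37.5 CPM in the GFP libraries, and a log2 fold change of -0.42 (edgeR, adjusted p = 0.0669). Cdh11, a cadherin of mesenchyme and of neurons, had 219, 219.8 and 263 CPM in the Gas5 libraries, against 268, 289 and 279.7 CPM in the GFP libraries, and a log2 fold change of -0.25 (edgeR, adjusted p = 0.101). Both genes had all Gas5 libraries below all GFP libraries. DESeq2 called both lower, with an adjusted p of 0.00927 for Cdh6 and 0.0345 for Cdh11, as did edgeR without Gas5 C (0.0154 and 0.0194). The other 4 overlapped between the groups, with log2 fold changes between -0.12 (Cdh22) and 0.11 (Cdh8). Among them was Cdh5, the cadherin of endothelial junctions (VE-cadherin), at 8.63, 7.74 and 8.39 CPM in the Gas5 libraries, against 9.20, 7.13 and 8.25 CPM in the GFP libraries. Without Gas5 B edgeR also called Cdh22 lower, at a log2 fold change of -0.28 (adjusted p = 0.0415).

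The chromosome 15 genes Cdh6, Cdh9, Cdh10, Cdh12 and Cdh18 are the members within 10.4 Mb, and all 5 lay below GFP in every Gas5 library. Of these 5, 4 were called. The same stretch holds 65 other listed genes, of which 2 were tested and 0 were called. On chromosome 1, 16 other tested genes lie between Cdh20 and Cdh19 over 6.21 Mb, and 0 of them were called. On chromosome 8, 13 other tested genes lie between Cdh8 and Cdh16 over 5.60 Mb with 0 calls, and on chromosome 14, 3 lie between Pcdh17 and Pcdh9 over 9.45 Mb with 0 calls. Over all tested genes 5.40% were called in either direction. With so few neighbours tested, 0 calls do not set them apart from that share.

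Cdh13, T-cadherin, is held in the membrane by a lipid anchor, has no cytoplasmic tail and binds adiponectin. It stood at 178.5, 206 and 207 CPM in Gas5 A, B and C, against 273, 399.9 and 369 CPM in GFP A, B and C. All Gas5 libraries lay below all GFP libraries, and GFP A was the lowest of its group. Cdh13 fell 1.76-fold, with a log2 fold change of -0.82 ± 0.131 (SE; edgeR, adjusted p = 0.0146). The call was lost when the fit omitted GFP B or C (adjusted p = 0.0663, 0.0797), and the log2 fold change without those libraries was -0.70 and -0.77. With the cortical score as covariate it was -0.05 ± 0.243 (SE). The gene spans over a megabase (chromosome 8, 118283733 to 119324921, plus strand), and 1.08% of it is exon.

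The type I cadherins gave 0 calls by edgeR, DESeq2 or limma-voom with all libraries, with 1 of 3 at an unadjusted p under 0.05. Among all tested genes edgeR called 5.40% in either direction. Cdh2, N-cadherin, the main cadherin of neuronal junctions and synapses, stood at 329, 268 and 317 CPM in the Gas5 libraries, against 272, 255 and 252 CPM in the GFP libraries. The groups overlapped through Gas5 B, the log2 fold change was 0.23 and the edgeR adjusted p was 0.136. Without Gas5 B it was called higher, with a log2 fold change of 0.31 (edgeR, adjusted p = 0.0288). Cdh4, R-cadherin of the retina and brain, averaged 263 ± 53.9 CPM in Gas5 and 278 ± 21.5 CPM in GFP (SD, n = 3 each), with overlapping groups. Cdh1, E-cadherin of epithelia, was scarce, with raw counts of 42, 2 and 3 in Gas5 A, B and C, against 19, 18 and 21 in GFP A, B and C. Most Gas5 reads of Cdh1 came from library A, and without it edgeR called Cdh1 lower (adjusted p 0.0315), against an adjusted p of 0.852 with all libraries. Cdh1, Cdh2, Cdh4, Cdh5 and Cdh22 were singled out after their values were seen.

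Cdh23 and Pcdh15, whose proteins join end to end into the tip links of hair cells in the inner ear, also had 0 calls, with 0 at an unadjusted p under 0.05 and 0 calls by DESeq2 or limma-voom. For comparison, edgeR called 5.40% of all tested genes in either direction. Pcdh15 averaged 315 ± 65.3 CPM in Gas5 and 300.1 ± 7.20 CPM in GFP (SD, n = 3 each) and Cdh23 7.82 ± 0.909 CPM in Gas5 and 8.73 ± 0.608 CPM in GFP (SD, n = 3 each). Both overlapped between the groups. Of the 5 genes below the filter, Cdh3 (P-cadherin), Cdh16 (kidney), Cdh17 (liver and intestine) and Cdh26 had between 1 and 15 raw counts in a library. Cdh15, the cadherin of skeletal muscle, was at 0 in every library, and since its whole span is shared with another listed gene it was not measured.

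The 4 delta-1 protocadherins summed to 2651, 2973 and 3101 CPM in Gas5 A, B and C, against 3398, 3636 and 3560.4 CPM in GFP A, B and C, without correction for length. Pcdh7, known from neural tube closure and retinal axons in Xenopus, was the one called. It stood at 409, 405 and 456 CPM in Gas5 A, B and C, against 514, 510.0 and 538 CPM in GFP A, B and C. Its Gas5 libraries lay below its GFP libraries without overlap, and Gas5 C was the closest. The decrease was 1.23-fold, with a log2 fold change of -0.30 ± 0.0615 (SE; edgeR, adjusted p = 0.0314). The call was lost when the fit omitted Gas5 A or B (adjusted p = 0.0625, 0.0580) or GFP A, B or C (adjusted p = 0.0641, 0.120, 0.148).

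Pcdh9, a protocadherin expressed in forebrain neurons, gave 38.2% of the members' CPM, a share that its long span enters. It had 1941, 2269 and 2355 CPM in Gas5 A, B and C, against 2592, 2838 and 2730.5 CPM in GFP A, B and C. The groups did not overlap, but the log2 fold change of -0.31, with a standard error of 0.0885, had an edgeR adjusted p of 0.0811 and was not called. DESeq2 called it lower, with an adjusted p of 0.00360. Pcdh1, known from airway epithelium and the member with the highest level per kb, stood at 159, 174 and 159.7 CPM in the Gas5 libraries, against 171, 172 and 169.8 CPM in the GFP libraries, with overlapping groups and a log2 fold change of -0.06 (edgeR, adjusted p = 0.557). Pcdh11x, which lies on the X chromosome, was named after its values were seen, at 142, 126 and 129 CPM in the Gas5 libraries, against 121, 117 and 122 CPM in the GFP libraries. Its Gas5 libraries lay above its GFP libraries, and the edgeR adjusted p was 0.192.

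The 5 delta-2 protocadherins had 0 calls by edgeR, DESeq2 or limma-voom among the genes that passed the count filter with all libraries, with 1 at an unadjusted p under 0.05, and their median log2 fold change was 0.19. By edgeR 5.40% of all tested genes were called in either direction. The summed level of the delta-2 genes was 496, 456.5 and 535 CPM in Gas5 A, B and C, against 505, 479.8 and 443 CPM in GFP A, B and C. These sums overlapped, unlike those of the delta-1 and type II genes. In the delta-1 sum the uncalled Pcdh9 alone averaged 2188 of 2908 CPM in Gas5 and 2720 of 3532 CPM in GFP. Of the other delta-1 genes Pcdh1 overlapped between the groups and Pcdh11x lay above GFP. Pcdh10, which guides axons of striatal neurons and takes part in activity-dependent synapse elimination, stood at 200.1, 188 and 202 CPM in the Gas5 libraries, against 191, 184 and 169 CPM in the GFP libraries, and 33.3% of its span was shared and uncounted. Pcdh17, which is found at synapses of corticobasal ganglia circuits, stood at 216, 211 and 265 CPM in the Gas5 libraries, against 254, 239 and 224 CPM in the GFP libraries. Both overlapped between the groups, with an edgeR adjusted p of 0.288 for Pcdh10 and 0.789 for Pcdh17. Pcdh8, also called arcadlin, whose transcript is induced by neuronal activity in rodents, stood at 14.4, 8.04 and 10.1 CPM in the Gas5 libraries, against 9.79, 10.04 and 8.34 CPM in the GFP libraries. Between these 6 libraries the highest Pcdh8 value was that of Gas5 A and the lowest that of Gas5 B, and the edgeR adjusted p was 0.590. Pcdh19, a gene on the X chromosome whose loss causes a form of epilepsy in humans, was singled out after its values were seen, at 57.3, 44.3 and 50.5 CPM in the Gas5 libraries, against 44.1, 41.4 and 35.4 CPM in the GFP libraries. All Gas5 values of Pcdh19 exceeded all GFP values, the lowest Gas5 value by little, and the edgeR adjusted p was 0.116. Without the count filter edgeR called Pcdh19 higher (log2 fold change 0.33, adjusted p = 0.0285). Pcdh18, the remaining delta-2 gene, averaged 6.98 ± 1.24 CPM in Gas5 and 6.10 ± 0.162 CPM in GFP (SD, n = 3 each), with overlapping groups.

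Of the 2 remaining protocadherins, Pcdh20 was lower and Pcdh12, an endothelial protocadherin, was scarce. Pcdh20 stood at 4.59, 4.65 and 6.68 CPM in Gas5 A, B and C, against 8.94, 8.40 and 8.72 CPM in GFP A, B and C. The Gas5 libraries were all below the GFP libraries, which were nearly level. It fell 1.64-fold, with a log2 fold change of -0.72 ± 0.144 (SE; edgeR, adjusted p = 0.0295). The call was lost when the fit omitted Gas5 A or B (adjusted p = 0.0633, 0.0582) or GFP A, B or C (adjusted p = 0.0720, 0.107, 0.124). Unlike the long genes above, Pcdh20 is short (chromosome 14, 88464743 to 88471396, minus strand), and 82.5% of its span is exon. Pcdh12 averaged 0.350 ± 0.131 CPM in Gas5 and 0.462 ± 0.180 CPM in GFP (SD, n = 3 each), with an edgeR adjusted p of 0.623.

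**Figure D3:**
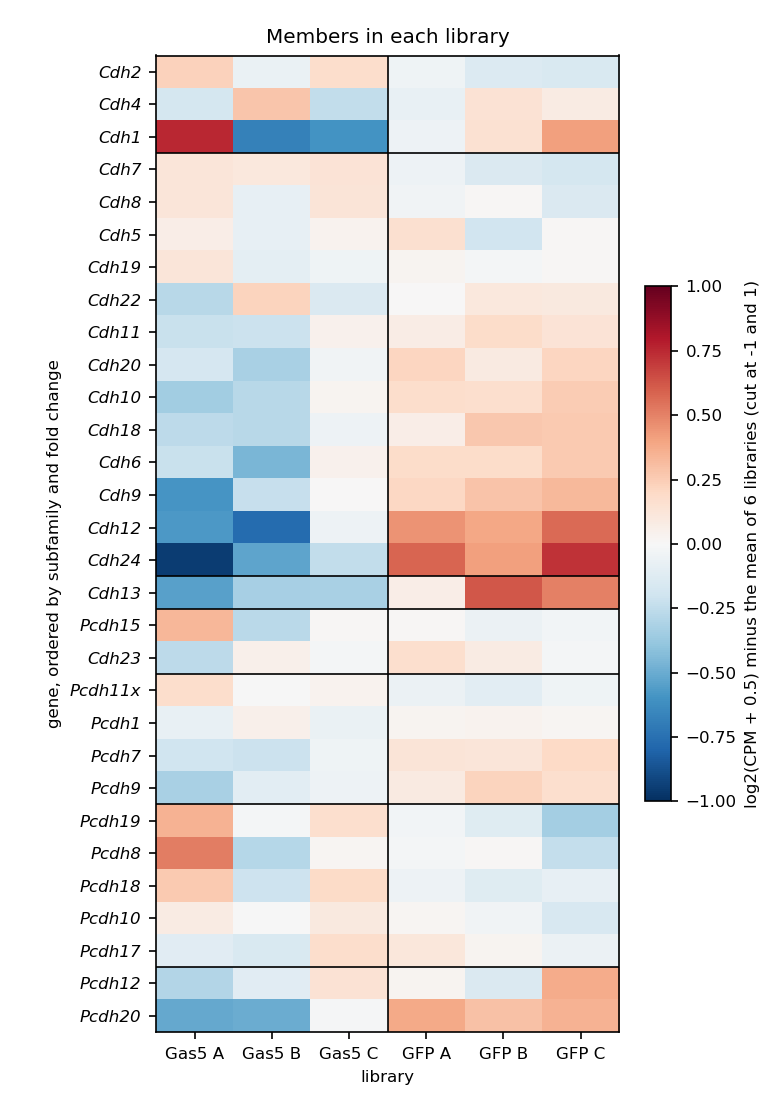
Each tested gene (rows, by subfamily) in each library (columns), as log2(CPM + 0.5) minus the gene's mean over the 6 libraries, with colours cut at -1 and 1. The type II genes called lower, Cdh13 and Pcdh20 are near white to red in the GFP libraries and blue to near white in the Gas5 libraries. Cdh13 and Cdh18 are near white in GFP A. In the type II genes called lower Gas5 C is the palest of its group. Cdh1 is red in Gas5 A alone of its group.

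Set per kb of gene span, which includes introns, the 6 highest members over all libraries were Pcdh1 (6.41 CPM per kb), Pcdh10 (3.30), Pcdh9 (2.80), Pcdh17 (2.46), Pcdh8 (2.23) and Cdh11 (1.67). So 5 of the 6 were protocadherins, and Cdh11 was the only type II cadherin among them. The called genes lay below these 6 on this scale. Cdh24 had a level of 0.510 CPM per kb in Gas5 and 1.17 in GFP, Cdh13 0.189 and 0.333, and Cdh12 0.0616 and 0.115. At the low end stood Cdh1, with 0.00640 CPM per kb, and Cdh23, with 0.0210. Since the span includes introns, this order does not rank spliced transcripts. The span also includes stretches shared with other listed genes, whose reads were not counted, which lowers the level per kb. They make up 46.6% of the span of Cdh12, 33.3% of Pcdh10, 31.0% of Pcdh8 and 18.6% of Pcdh17.

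**Figure D4:**
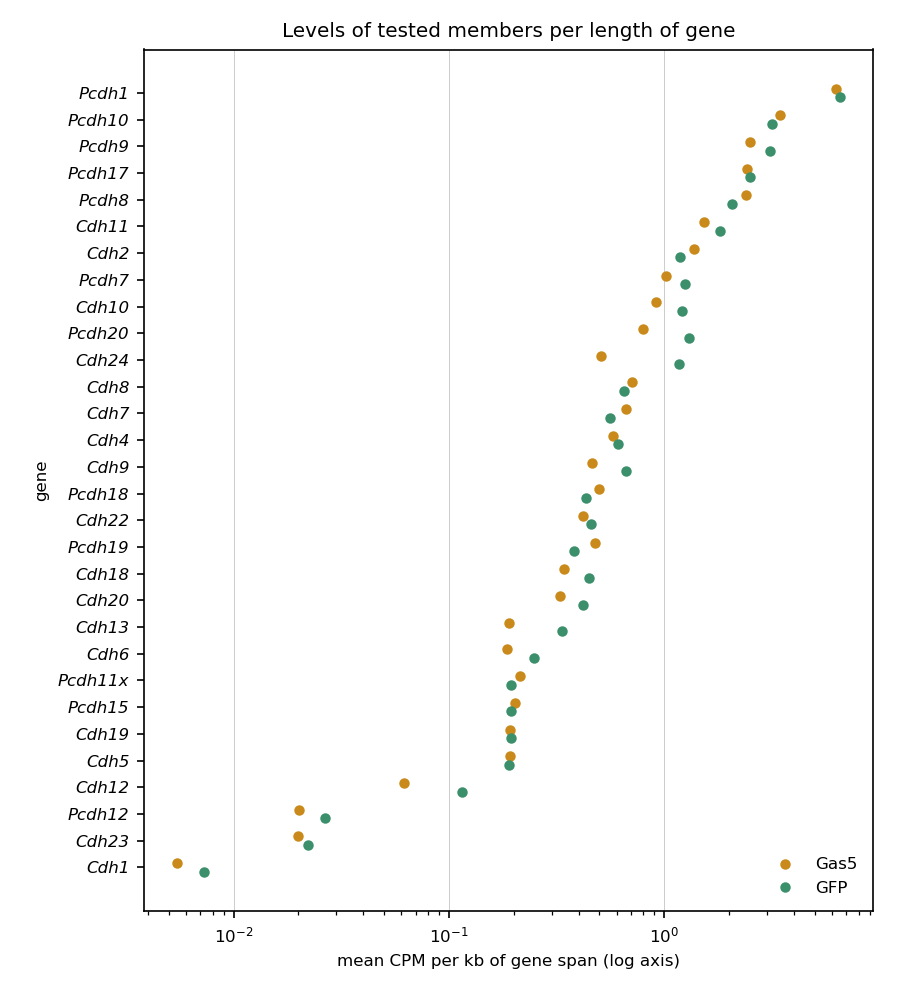
Mean CPM per kb of gene span (horizontal log axis) of the 30 tested genes in Gas5 (orange) and GFP (green), ordered by the mean of all 6 libraries. The points run from 0.00547 for Cdh1 in Gas5 to 6.53 for Pcdh1 in GFP, and the widest gap between the groups on the log axis is that of Cdh24.

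The members differ widely in length. Exons make up a median of 4.97% of the span of the tested members, and 15 of the 30 have under 5%, so introns make up most of the counted length. Of 19 tested members spanning 100 kb or more, 7 were lower (36.8%) and 1 was higher, with a median log2 fold change of -0.25. Among all 2620 tested genes of that span 10.2% were lower, and their median was -0.03. Of 11 shorter members 2 were lower, Cdh24 and Pcdh20, and the difference between long and short members was not tested. With the trend of log2 CPM on span removed in each library, edgeR called 4 members lower, Cdh24 (log2 fold change -1.22), Cdh12 (-0.76), Pcdh20 (-0.73) and Cdh13 (-0.66). The call was lost for Cdh9 (-0.49, adjusted p = 0.0548), Cdh10 (-0.33, adjusted p = 0.0691), Cdh20 (-0.27, adjusted p = 0.0773), Cdh18 (-0.25, adjusted p = 0.0652) and Pcdh7 (-0.19, adjusted p = 0.0920). In the same fit edgeR called 2 higher, Cdh7 (0.30) and Pcdh11x (0.26).

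Besides the cortical markers, the summed markers of reactive astrocytes, oligodendrocytes, microglia, ependymal cells and choroid plexus did not overlap between the groups, while those of endothelial cells and astrocytes did. Reactive astrocyte markers summed to between 73.3 and 146 CPM in Gas5 and between 32.1 and 42.4 CPM in GFP, and 4 of 8 tested ones were higher, with Gfap and Timp1, whose spans are wholly shared, at 0. Oligodendrocyte markers summed to between 1635 and 2064 CPM in Gas5 and between 2117 and 2289.6 CPM in GFP, and 1 of 10 (Aspa) was lower. All 10 oligodendrocyte markers had a negative log2 fold change, with 7 at an unadjusted p under 0.05 by edgeR. Microglial markers summed to between 281 and 305 CPM in Gas5 and between 244 and 273 CPM in GFP, with 0 of 8 called by edgeR, 5 at an unadjusted p under 0.05 and P2ry12 at 0, its span being shared. Endothelial markers, of which 1 of 10 (Flt1) was lower, summed to between 284 and 312 CPM in Gas5 and between 310 and 326 CPM in GFP. Ependymal markers (1 of 3 higher, Rsph1) summed to between 6.76 and 8.14 CPM in Gas5 and between 4.47 and 5.16 CPM in GFP. Choroid plexus markers (1 of 4 higher, Kl) summed to between 27.4 and 35.3 CPM in Gas5 and between 23.3 and 25.9 CPM in GFP. The other 3 tested choroid plexus markers overlapped between the groups. Of these, Clic6 (log2 fold change 0.20) and Otx2 (0.60) were positive and Ttr (-0.65) was negative. Astrocyte markers (1 of 10 higher, Aqp4) summed to between 3422 and 4078 CPM in Gas5 and between 3817 and 4089 CPM in GFP, and among interneuron and septal or pallidal markers 1 of 8 (Vip) and 1 of 7 (Trpc4) were lower. Markers of oligodendrocyte precursors, mural cells and neuroblasts had 0 calls by edgeR, with 2, 2 and 0 at an unadjusted p under 0.05. The part of these cell types in the cadherin values was not tested. For the cortical neurons, the marker score was put into the model as a covariate. The scores of the groups do not overlap, and in this model edgeR called 0 of all tested genes, with 401 at an unadjusted p under 0.05 over all genes and 0 among the members. In that fit 18 of the 30 members changed sign, and the log2 fold change (with SE) was -0.37 ± 0.381 for Cdh24, -0.42 ± 0.397 for Cdh12, -0.33 ± 0.210 for Cdh20, -0.27 ± 0.369 for Pcdh20 and -0.13 ± 0.151 for Pcdh7. It was -0.0021 ± 0.171 for Cdh18 and 0.15 ± 0.127 for Cdh7, beside the values of Cdh9, Cdh10 and Cdh13 given above. The vector and the cortical marker level cannot be told apart in these 6 libraries.

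The cytoplasmic partners of the classical cadherins showed 0 calls, where 5.40% of all tested genes were called in either direction. Of 12 tested catenins and actin adaptors, which link cadherin tails to the cytoskeleton, 0 were called by edgeR, DESeq2 or limma-voom, and 1 had an unadjusted p under 0.05. The list's median log2 fold change was -0.08, with 10 values negative and 2 positive. In 3 of the 12 Gas5 lay below GFP without overlap, where 27.7% of all tested genes had no overlap. The smallest p-values belonged to Ctnnd1, p120-catenin, which stabilises cadherins at the membrane, and Ctnna3, alpha-T-catenin. Ctnnd1 averaged 4.31 ± 0.396 CPM in Gas5 and 5.42 ± 0.116 CPM in GFP (SD, n = 3 each) on the small part of its span that was counted (97.3% was shared), with an edgeR adjusted p of 0.110. Ctnna3 averaged 83.4 ± 8.57 CPM in Gas5 and 95.9 ± 9.72 CPM in GFP (SD, n = 3 each), with an edgeR adjusted p of 0.254.

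Other members of the cadherin superfamily lay on both sides of 0. Of 17 tested, 6 were lower and 0 higher by edgeR, where 3.94% of all tested genes were lower and 1.46% higher. The median log2 fold change was -0.04. An unadjusted p under 0.05 was reached by 11 of the 17, and by 3783 of all 17693 tested genes. In 4 of those 11 every Gas5 library lay above every GFP library, without a call, namely Dsc2 (log2 fold change 0.80; edgeR, adjusted p = 0.123), Dchs2 (0.34, 0.0565), Dchs1 (0.30, 0.0666) and Fat1 (0.29, 0.0686), named after their values were seen. DESeq2 called 9 of the 17. Clstn2, a calsyntenin of the postsynaptic membrane, stood at 152, 193 and 194 CPM in the Gas5 libraries, against 253, 286 and 293 CPM in the GFP libraries, with a log2 fold change of -0.62 (edgeR, adjusted p = 0.0142). The other genes called lower were Cdhr3 (log2 fold change -1.21), Cdhr1 (-1.01), Fat4 (-0.45), Celsr2 (-0.24) and Clstn3 (-0.24). Levels of Cdhr3 and Cdhr1 were low. Cdhr3 averaged 0.509 CPM in Gas5 and 1.17 CPM in GFP, and Cdhr1 averaged 2.26 CPM in Gas5 and 4.57 CPM in GFP. Raw counts of Cdhr3 were 18, 21 and 24 in Gas5 A, B and C, against 70, 42 and 37 in GFP A, B and C. Fat4 and Celsr2 are large cadherins of planar cell polarity, Cdhr1 is a photoreceptor and olfactory bulb cadherin, Cdhr3 an airway cadherin that binds rhinovirus C in humans, and Clstn3 a synaptic calsyntenin that binds neurexins. When 1 library at a time was left out, between 0 and 5 genes of this list were called, 3 without Gas5 B and 0 if GFP B or GFP C was omitted.

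Enzymes that cut or mature cadherins and proteins that act with protocadherins gave 3 lower genes of 15 tested, with a median log2 fold change of -0.05. Over all tested genes 3.94% were lower. Pcsk5, a proprotein convertase, averaged 53.95 ± 5.17 CPM in Gas5 and 87.4 ± 15.1 CPM in GFP (SD, n = 3 each), with a log2 fold change of -0.69 (edgeR, adjusted p = 0.0183). Pak1, a kinase of the actin cytoskeleton, averaged 138 ± 7.15 CPM in Gas5 and 193 ± 21.3 CPM in GFP (SD, n = 3 each), with a log2 fold change of -0.49 (edgeR, adjusted p = 0.0160). Cyfip2, a subunit of the WAVE actin-regulating complex that binds the tails of several delta protocadherins, had a log2 fold change of -0.31 (edgeR, adjusted p = 0.0410). With GFP B or GFP C omitted 0 of this list were called, and between 2 and 4 when another library was left out.

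**Figure D5:**
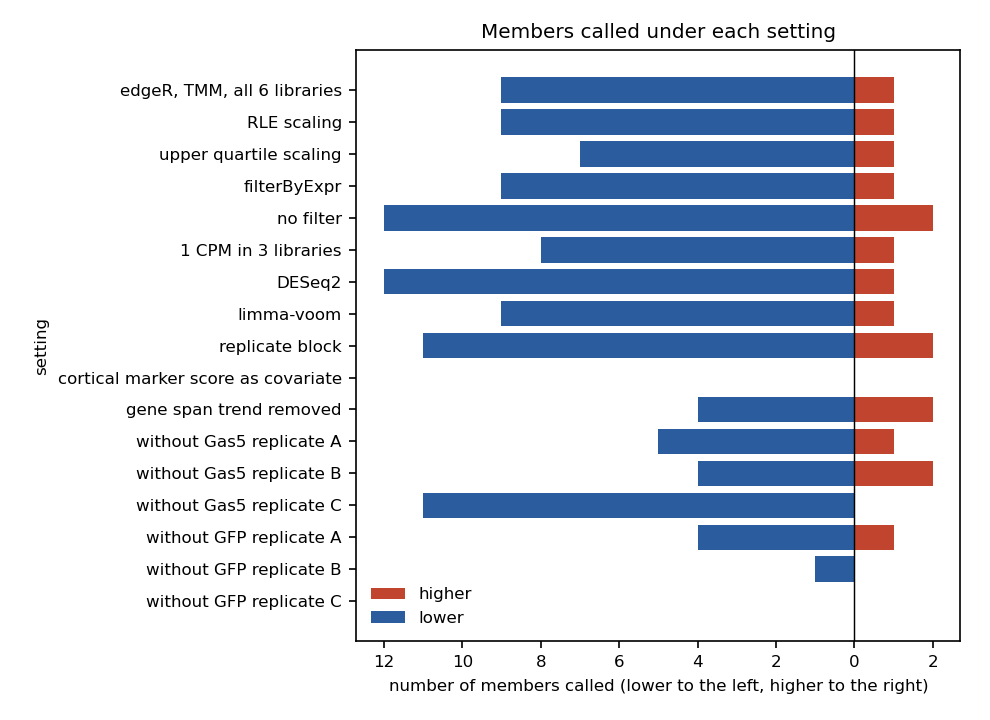
Number of members called lower (blue, to the left) and higher (red, to the right) under each scaling, filter, test, covariate or left-out library. Counts lie between 7 and 12 lower in the rows for scalings, filters and tests, at 4 with the span trend removed, and drop to 1 without GFP B and to 0 without GFP C or with the cortical score.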

How the data were processed

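Total RNA of 6 nucleus accumbens samples was depleted of ribosomal RNA and made into directional libraries, per the labels' protocols. In their processing notes the submitters list STAR 2.7.0, Trim Galore 0.4.4, featureCounts 1.5.0-p3 and the build GRCm38.p6. A strand setting is not given in the sources used here. Raw, unnormalized counts per gene were deposited, per the file headers. The deposited length column, in bases, equals the whole gene span, so introns were counted. None of 7465 genes of 500 bases or more lying within another listed gene had a count, against 15605 of 23125 that share no base, so reads in shared spans are absent, whichever the strand. Antisense reads over an unshared span count towards the gene.

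Counts were tested in R 4.3.3 by edgeR 4.0.16 (quasi-likelihood F-test, 2-sided) on 17693 genes with 10 counts in 3 libraries, with TMM scaling and Benjamini-Hochberg adjustment over all of them (threshold 0.05). All 6 libraries entered the fit, with a common biological coefficient of variation of 8.29%. CPM were scaled by TMM, and 0.5 was added before taking logarithms. A difference between groups without overlap means that all 3 values of one lie beyond all 3 of the other. The fit was tried on simulated counts that had the same spread for every gene and no shift in cell types. That trial says nothing of how the calls depend on single libraries. In the deposited counts no 2 libraries of a group agreed within sampling noise (chi-square per degree of freedom 4.82 to 23.3). Alternatives were other scalings (RLE, upper quartile), other filters, DESeq2 1.42.0, limma-voom (limma 3.58.1), the replicate letter as a block, the cortical marker score as a covariate, a correction for gene span, and fits without each library.

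The members and the gene lists were chosen with earlier results of these data known. Values per library were given for called members, for the 6 highest per kb of span and for the 3 uncalled ones of smallest adjusted p. In the other lists, called genes and the 2 of smallest p were named. Other genes were named after their values were seen. Exons come from GENCODE M21, in which 34 of the 35 members have the coordinates of the deposited tables. No outlier test was made with 3 libraries a group.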

Additional observations from a re-analysis of the deposited data

How the results depend on the processing

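Among the members, 1 was called higher and 9 lower. The number called higher was 2 without a filter, 2 with the replicate letter as a block, 2 with the span trend removed, 0 with the cortical score as covariate, and between 0 and 2 with 1 library left out. The number called lower was 4 with the span trend removed, 0 with the covariate, and between 0 and 11 with 1 library left out. Over all genes, where 259 were higher and 697 lower, the number higher was 656 without a filter, 495 with DESeq2, 507 with the block and 0 with the covariate, and the number lower was 0 with the covariate. With 1 library left out there were between 3 and 245 higher and between 88 and 608 lower genes. The log2 fold change of Gas5 was 0.37 with the covariate, where its call was lost, and between 0.33 and 0.42 with 1 library left out. Of the catenins and adaptors 1, Ctnna3, was called with the block. With the covariate 0 of the other superfamily genes and 0 of the processing and partner genes were called, and with 1 library left out between 0 and 5 and between 0 and 4 were. Of Gas5, the called members and the called genes of the partner and superfamily lists, those that changed sign did so only with the covariate, namely Cdh9 (0.28), Cdh10 (0.037), Celsr2 (0.017), Clstn2 (0.050) and Cyfip2 (0.0021). RLE scaling, limma-voom and the filter of edgeR gave 1 higher and 9 lower members each.

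Same-lettered libraries deviated from their group means with correlations of 0.22 (A), 0.22 (B) and -0.09 (C) over 14503 genes, so the letters were not taken as pairs, and the block counts above (2 higher and 11 lower members, with Pcdh19, Cdh6 and Pcdh9 added) say nothing of a weaker or stronger effect. Gas5 C correlated best with GFP B (0.05). Low counts limit Cdh1, Pcdh12 and 4 of the 5 untested genes, and Cdh15 was not measured. With 3 libraries a group and a cortical marker score that separates the groups, the fit with that covariate has wide errors, and an adjusted p above the threshold there does not show that values did not differ.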
